A study of Homo sapiens with 24 samples.

Results

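The surrogate light chain genes IGLL1, VPREB1 and VPREB3 were followed through RNA-seq of 2 B cell precursor acute lymphoblastic leukaemia cell lines, Nalm6 and Sem, under 2 drugs. The 3 genes were chosen by name, together with the opposite response of IGLL1 in the lines, so the IGLL1 values chose the set and are described here without a test. All 3 of the 3 genes are listed among the 58735 genes measured, and each was above 0 in all 24 libraries. Each line was left untreated, or received 10 µM ibrutinib, asparaginase or the 2 in combination over 24 h, and each of the 8 groups had 3 libraries. The asparaginase concentration is 1 IU/ml in the sample labels and 0.5 IU/ml in the treatment protocol. Ibrutinib is a covalent inhibitor of the kinase BTK, and asparaginase is an enzyme that removes asparagine from the medium and is used to treat this leukaemia. Both lines are long-established cultures, each derived from a single leukaemia, and no source used here says whether the 3 libraries of a group came from separate cultures, so p-values below reflect only how these libraries vary, possibly for technical reasons.

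During B cell development a precursor that has made a heavy chain but no light chain pairs that heavy chain with a surrogate light chain. The surrogate is built from IGLL1, which resembles the constant part of a lambda light chain, and VPREB1, which resembles a variable domain. With the mu heavy chain and the signalling proteins CD79A and CD79B they form the pre-B cell receptor, which signals through kinases that include BTK, and the cell turns the surrogate genes down as it moves on. VPREB3 is a related single-domain protein of B lineage cells whose role is less settled.

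The 3 genes lie on chromosome 22 of hg38. IGLL1 (ENSG00000128322) spans chr22:23573125-23580308 on the minus strand, with 2 to 3 exons in its annotated transcripts. VPREB3 (ENSG00000128218) spans chr22:23752743-23754468 on the same strand, 172 kb away, and VPREB1 (ENSG00000169575) spans chr22:22244675-22245515 on the plus strand, 1.33 Mb from IGLL1 on its other side. The bases just before each gene start are shown as background, and their part in any expression change was not tested. They are taken from RefSeq promoter windows of GRCh38.p14, given in the direction of transcription, and end at the last base before the annotated gene. The stretches are chr22:23580309-23580540 (minus strand), chr22:22244536-22244674 (plus strand) and chr22:23754469-23754675 (minus strand). Capitals mark every match, on either strand, to CCCNNGGG (the core of the site of the B lineage factor EBF1), CANNTG (the E-box bound by E proteins) and TGGGAA (the core of the Ikaros site).
IGLL1: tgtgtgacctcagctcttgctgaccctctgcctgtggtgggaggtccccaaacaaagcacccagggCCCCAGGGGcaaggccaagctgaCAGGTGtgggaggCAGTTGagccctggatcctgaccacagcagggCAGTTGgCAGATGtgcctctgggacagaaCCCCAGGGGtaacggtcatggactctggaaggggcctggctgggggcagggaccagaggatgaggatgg
VPREB1: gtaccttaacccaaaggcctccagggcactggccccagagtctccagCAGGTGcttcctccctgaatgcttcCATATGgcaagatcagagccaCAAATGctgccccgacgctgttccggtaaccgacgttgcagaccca
VPREB3: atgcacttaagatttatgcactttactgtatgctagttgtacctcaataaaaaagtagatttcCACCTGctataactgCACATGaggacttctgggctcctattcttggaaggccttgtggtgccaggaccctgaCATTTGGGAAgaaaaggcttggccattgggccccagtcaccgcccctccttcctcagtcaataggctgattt
In the whole 300-base windows, the IGLL1 promoter held 4 overlapping CCCNNGGG matches at 2 places and 6 CANNTG matches, of which the printed stretch holds 4. The VPREB1 window held 1 CCCNNGGG match, beyond the stretch printed, and 3 CANNTG matches, while the VPREB3 window held 0 CCCNNGGG, 4 CANNTG and 2 TGGGAA matches, and 1 of the 4 CANNTG and 1 of the 2 TGGGAA matches lie outside the printed stretch. In VPREB3 a CANNTG match and a TGGGAA match overlap and form 1 run of capitals. Of 35116 promoter windows of the same length, 19.1% held CCCNNGGG, 68.7% CANNTG and 24.0% TGGGAA. The core of the FOXO site, TGTTTAC, was in none of the 3 windows and in 3.42% of all. A match is a run of letters and no evidence of binding.

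Levels are given as FPKM, read fragments scaled by gene length and by a divisor for each library, so they may be compared between genes. That divisor was not the number of assigned reads: it was 0.919 to 1.09 times that number over the 24 libraries. It also moved with treatment, from 0.982 to 0.995 in untreated Nalm6 to 1.07 to 1.09 with asparaginase, and from 0.919 to 0.940 in untreated Sem to 0.959 to 0.983 with the combination. The divisor thus makes log2 changes from untreated lower than plain scaling by assigned reads would. In Nalm6 they are lower by 0.13 with asparaginase and by 0.14 with the combination, and in Sem by 0.044 and 0.053. Changes are differences of log2(FPKM + 1) with the standard error of a limma fit over all genes at 1 FPKM or more in at least 3 libraries, and adjusted p-values are by the Benjamini-Hochberg method over all genes tested. Genes with an adjusted p below 0.05 count as called. The libraries held 15032809 to 18136263 assigned reads, in which 1 read in a gene of 1 kb is worth 0.0601 FPKM at the median library. In Nalm6 the libraries untreated 2, asparaginase 1 and combination 1 stood apart from the rest of their group by correlation, and none did in Sem. The cut was a gap in r of 0.0015, and the lowest mean r of a library with its group was 0.983. Sem untreated 2 fell just short of the cut (mean r 0.98701, against 0.98841 for the other pair). Of 10 B precursor markers, 10 had a mean of at least 1 FPKM in Nalm6 and 6 in Sem, including CD22, CD79A, CD79B, EBF1 and PAX5. DNTT, MME, RAG1 and RAG2, which the precursor stage is known for, averaged below 1 FPKM in Sem. Summed levels of 10 T and NK cell markers were 1.75 to 12.05 FPKM in Nalm6 and 84.2 to 124 FPKM in Sem, where NKG7 and TRAC were above 1 FPKM and CD3D, CD3E, CD4 and KLRD1 were at 0. The part of such levels in any result was not tested. In bulk RNA, fewer cells that express a gene and less of its RNA per cell cannot be told apart.

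IGLL1 had the highest mean level of the 3 genes in every group and, with ibrutinib and with the combination, was lower than untreated in Nalm6 and higher in Sem. In untreated Nalm6 it stood at 998, 984 and 1110.1 FPKM, the 23rd highest gene by mean level (1031 ± 69.2, SD, n = 3). With ibrutinib the Nalm6 libraries were at 826, 872 and 876 FPKM, and with asparaginase at 357, 364 and 392 FPKM. The combination libraries were at 219.5, 264 and 259.7 FPKM, with a mean 4.16-fold under the untreated one. No Nalm6 group overlapped another, and the order ran from untreated through ibrutinib and asparaginase to the combination.

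In untreated Sem, IGLL1 was at 170.0, 158 and 165 FPKM (165 ± 5.82), which is 6.26-fold under untreated Nalm6. Ibrutinib libraries were at 316, 326 and 324 FPKM and asparaginase libraries at 73.4, 76.9 and 81.4 FPKM. With the combination the gene stood at 322, 332 and 344.8 FPKM, overlapping the ibrutinib libraries and above every untreated one. So the asparaginase libraries were the lowest in Sem, and adding ibrutinib to asparaginase went with a level above that of untreated cells. The combination brought the lines close: Nalm6 stood at 0.743 of the Sem mean there.

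**Figure D1:**
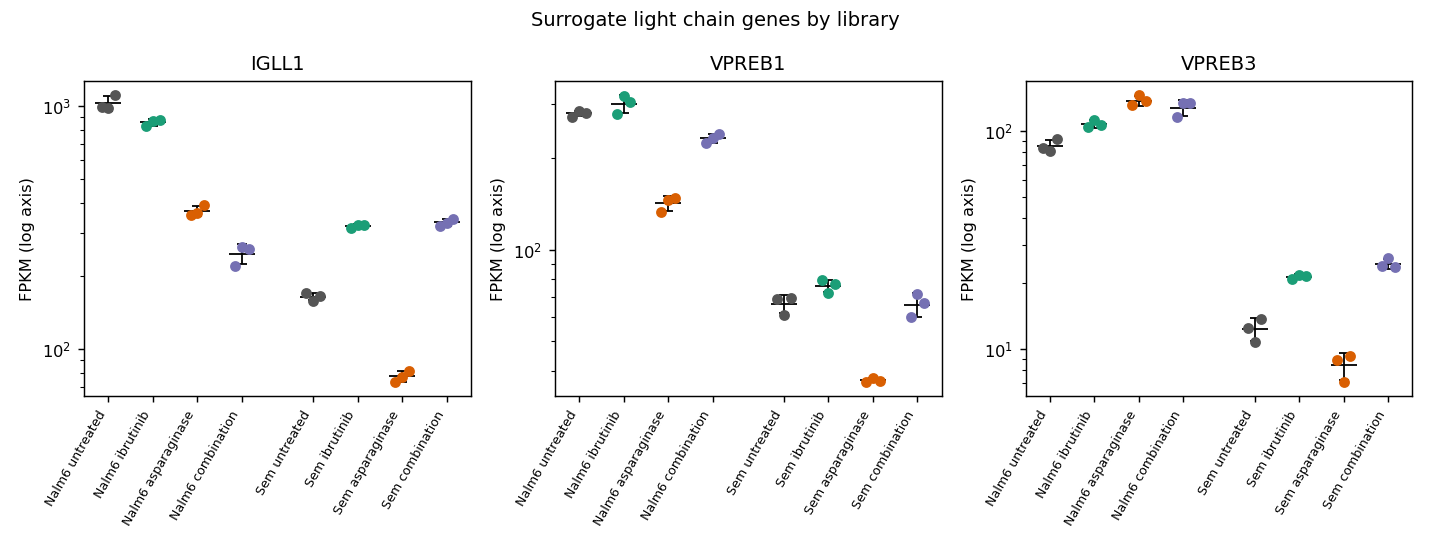
FPKM on a log axis of IGLL1, VPREB1 and VPREB3 in each of the 24 libraries, by line and treatment; points are libraries, the wide mark is the mean and the bar the SD of 3. IGLL1 is lower in each group from left to right in Nalm6, while in Sem its ibrutinib and combination libraries sit above the untreated ones and its asparaginase libraries below.

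On the log2 scale, IGLL1 in Nalm6 differed from untreated by -0.26 with ibrutinib, -1.47 with asparaginase and -2.06 with the combination, each with SE 0.077. In Sem the differences were 0.96, -1.08 and 1.01, each with SE 0.044. Against asparaginase alone, the combination was lower by 0.59 in Nalm6 (log2 difference -0.59, SE 0.077) and higher in Sem by 2.10 (SE 0.044). The Sem effect minus the Nalm6 effect was 1.23 for ibrutinib, 0.39 for asparaginase and 3.07 for the combination (SE 0.089 each). These values are the ones by which IGLL1 was singled out, and nothing is read from them beyond the direction in each library.

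VPREB1, the variable-like partner in the surrogate chain, fell with asparaginase in both lines and was higher with the combination than with asparaginase alone. In untreated Nalm6 it was at 273, 285 and 280.4 FPKM (279.6 ± 6.20), and with ibrutinib at 279, 318 and 305 FPKM, overlapping. Asparaginase libraries were at 133, 146 and 148 FPKM and combination libraries at 224, 233 and 239.9 FPKM. The asparaginase libraries were below all others of the line, and the combination libraries lay between them and the untreated ones. Untreated Sem libraries held 68.9, 61.0 and 69.3 FPKM (66.4 ± 4.66), and ibrutinib libraries 79.3, 72.0 and 77.0 FPKM. Asparaginase libraries were at 36.9, 38.0 and 37.2 FPKM, below all others of that line, and combination libraries at 59.9, 71.6 and 66.7 FPKM, spread over the range of the untreated ones.

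By limma, VPREB1 changed with asparaginase by -0.97 ± 0.059 (SE) in Nalm6 (adjusted p = 2.65e-07) and by -0.81 ± 0.067 in Sem (adjusted p = 1.02e-05), lower in 3 of 3 libraries of each line. Against asparaginase, the combination was higher by 0.71 ± 0.059 in Nalm6 (adjusted p = 2.75e-05) and by 0.80 ± 0.067 in Sem (adjusted p = 5.23e-06). With ibrutinib alone the change was 0.10 in Nalm6 (adjusted p = 0.286) and 0.19 in Sem (adjusted p = 0.0358). The Sem call was lost without Sem ibrutinib 1 (0.16, adjusted p = 0.114), ibrutinib 3 (0.19, adjusted p = 0.0892) or untreated 2 (0.14, adjusted p = 0.125). The combination against untreated gave -0.27 in Nalm6 (adjusted p = 0.0022) and -0.0093 in Sem (adjusted p = 0.92). The Nalm6 call did not hold on other scalings: TPM gave -0.095 (adjusted p = 0.134), limma-voom on recovered reads -0.13 (adjusted p = 0.0597) and quantile normalization 0.0065 (adjusted p = 0.927). In Sem the sign of the combination value turned on those 3 scalings, and with quantile normalization it was 0.25 with an adjusted p of 0.00534.

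The VPREB1 effects of the lines differed by 0.092 for ibrutinib (adjusted p = 0.573) and 0.16 for asparaginase (adjusted p = 0.183), neither past the threshold. For the combination the difference was 0.26 ± 0.091 (SE; adjusted p = 0.0293), a call lost without any one of Nalm6 combination 1, Nalm6 untreated 2, Nalm6 untreated 3, Sem combination 2, Sem combination 3 or Sem untreated 2, where the adjusted p rose to between 0.0505 and 0.0924 and the difference stayed between 0.20 and 0.26. TPM rescaling (0.18, adjusted p = 0.0845) and limma-voom (0.17, adjusted p = 0.144) lost it too. Untreated Sem stood under untreated Nalm6 by 2.06 (log2 difference -2.06, adjusted p = 2.53e-16).

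VPREB3 moved in opposite directions with asparaginase alone: it rose in Nalm6 and fell in Sem. In untreated Nalm6 it was at 83.7, 81.1 and 92.2 FPKM (85.7 ± 5.79), with ibrutinib at 104, 113 and 106 FPKM, and with asparaginase at 131, 146 and 137 FPKM. The combination libraries held 116, 134 and 135 FPKM, overlapping the asparaginase libraries. Every treated library of Nalm6 was above every untreated one. Sem levels were lower: 12.5, 10.8 and 13.8 FPKM untreated, 20.9, 22.0 and 21.6 with ibrutinib, 8.92, 7.06 and 9.33 with asparaginase, and 24.1, 26.2 and 23.8 with the combination. No pair of Sem groups overlapped. Each Sem value rests on 74 to 266 reads.

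With asparaginase VPREB3 changed by 0.68 ± 0.072 (SE) in Nalm6 (limma, adjusted p = 1.40e-05) and by -0.50 ± 0.096 in Sem (adjusted p = 0.00306). The lines' effects differed by -1.19 ± 0.13 (adjusted p = 7.45e-07), higher in 3 of 3 Nalm6 libraries and lower in 3 of 3 Sem libraries than the untreated ones. Ibrutinib went with 0.33 in Nalm6 (adjusted p = 0.0146) and 0.76 in Sem (adjusted p = 0.000111), and the combination with 0.57 (adjusted p = 3.39e-05) and 0.95 (adjusted p = 1.07e-05). The Nalm6 ibrutinib call was lost without Nalm6 untreated 1 (0.31, adjusted p = 0.0510) or Nalm6 ibrutinib 2 (0.30, adjusted p = 0.0614). Against asparaginase the combination gave -0.11 in Nalm6 (adjusted p = 0.310) and 1.45 in Sem (adjusted p = 1.11e-06). Untreated Sem stood below untreated Nalm6 by 2.70 (log2 difference -2.70, adjusted p = 5.93e-16).

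The VPREB3 line differences for ibrutinib (0.43, adjusted p = 0.0276) and for the combination (0.38, adjusted p = 0.0215) were called, but hung on single libraries. The first was lost without Nalm6 ibrutinib 1, ibrutinib 3 or untreated 3, or Sem ibrutinib 2, ibrutinib 3 or untreated 2, with values from 0.34 to 0.43. The second was lost without Nalm6 combination 1 or untreated 3, or Sem combination 2 or untreated 2, with values from 0.29 to 0.34. Quantile normalization took the ibrutinib difference to 0.34 (adjusted p = 0.0789) and the combination difference to 0.055 (adjusted p = 0.757).

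As background for these counts, the share of all tested genes that was called was 12.4% for ibrutinib, 56.3% for asparaginase, 63.7% for the combination and 21.8% for combination against asparaginase in Nalm6. In Sem the shares were 41.5%, 26.4%, 52.8% and 38.3% in the same order. Between lines 13.6% were called for the ibrutinib effect, 33.5% for asparaginase, 40.7% for the combination and 65.8% for the untreated levels. Of the 2 members tested, VPREB1 and VPREB3, the calls were 1 of 2 with ibrutinib, 2 of 2 with asparaginase, 2 of 2 with the combination and 1 of 2 for combination against asparaginase in Nalm6. In Sem they were 2 of 2, 2 of 2, 1 of 2 and 2 of 2. Between the lines 1 of 2 was called for ibrutinib, 1 of 2 for asparaginase, 2 of 2 for the combination and 2 of 2 untreated. With up to 65.8% of all genes called, these counts say little about the members as a set.

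**Figure D2:**
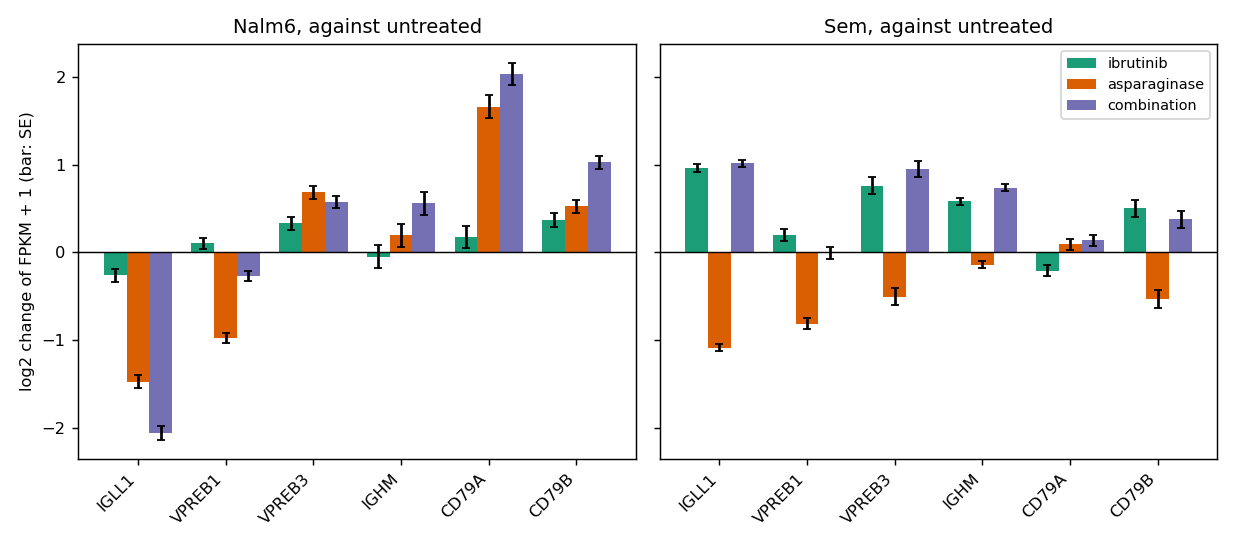
Log2 change of FPKM + 1 against untreated in Nalm6 (left) and Sem (right) for the 3 surrogate light chain genes and their receptor partners, with bars for ibrutinib, asparaginase and the combination and SE as error bars. In Nalm6 the IGLL1 bars point down and the CD79A bars up, and in Sem the asparaginase bars of all genes but CD79A point down.

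Because IGLL1 and VPREB1 build 1 chain together, the ratio of their FPKM values was followed. It was 3.69 ± 0.257 (SD, n = 3) in untreated Nalm6, 2.86 ± 0.110 with ibrutinib, 2.62 ± 0.0993 with asparaginase and 1.06 ± 0.0774 with the combination. In Sem it was 2.48 ± 0.105 untreated, 4.24 ± 0.270 with ibrutinib, 2.07 ± 0.106 with asparaginase and 5.07 ± 0.379 with the combination. The combination was thus the lowest group of Nalm6 and the highest of Sem. Since the ratio contains IGLL1, this is a description.

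**Figure D3:**
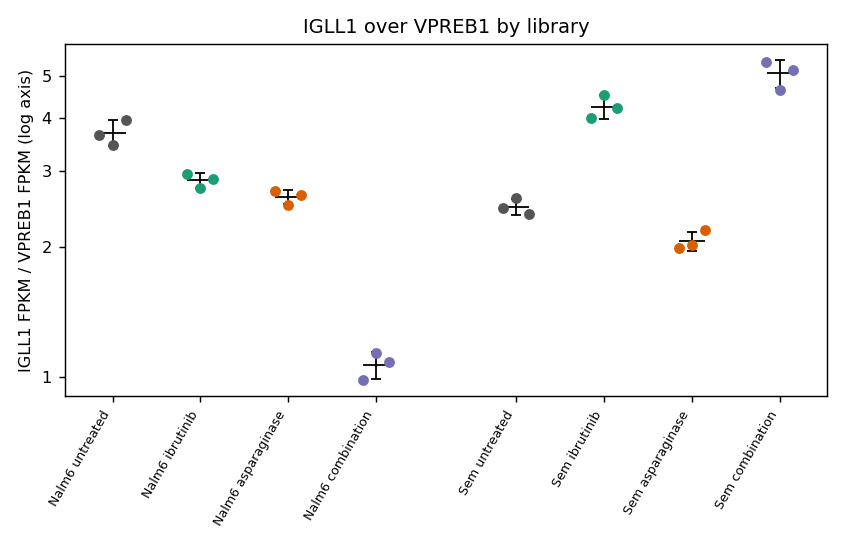
FPKM of IGLL1 divided by FPKM of VPREB1 in each of the 24 libraries on a log axis; points are libraries, marks the group mean and bars the SD of 3. The Nalm6 combination libraries lie near 1 and the Sem combination libraries near 5.

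Over all 24 libraries, with each line centred on its own mean, log2(FPKM + 1) of IGLL1 correlated with VPREB1 at r = 0.75 (0.61 in the 12 Nalm6 and 0.89 in the 12 Sem libraries). VPREB3 correlated with IGLL1 at -0.81 in Nalm6 and 0.97 in Sem, and with VPREB1 at -0.70 and 0.80. These points share libraries and treatments, so the values describe these groups only.

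The heavy chain and signalling partners of the receptor did not follow IGLL1 in Nalm6. IGHM, the mu heavy chain gene, was at 615, 515 and 620.4 FPKM in untreated Nalm6 and at 694, 943 and 967 FPKM with the combination. It rose with the combination by 0.56 (limma, adjusted p = 0.00297), while asparaginase alone gave 0.19 (adjusted p = 0.234). In Sem, IGHM rose with ibrutinib by 0.58 (adjusted p = 2.16e-06) and with the combination by 0.74 (adjusted p = 1.51e-07), and fell with asparaginase by 0.14 (adjusted p = 0.0285), a call lost with TPM rescaling (-0.052, adjusted p = 0.356). The IGHM level per IGLL1 level was 0.566 in untreated Nalm6 and 3.49 with the combination, against 1.28 and 1.06 in Sem. CD79A, a signalling subunit, was at 74.3 FPKM on average in untreated Nalm6 and rose there with asparaginase (1.66, adjusted p = 1.26e-06) and with the combination (2.03, adjusted p = 1.42e-07). In Sem the CD79A values were 0.10 (adjusted p = 0.298) and 0.14 (adjusted p = 0.0843). With ibrutinib CD79A fell in Sem by 0.21 (limma, adjusted p = 0.0199), a call lost with TPM rescaling (-0.12, adjusted p = 0.0964). CD79B, the other signalling subunit, rose in Nalm6 with asparaginase (0.53, adjusted p = 0.000142) and fell in Sem (-0.53, adjusted p = 0.0026). Its Sem means were 7.25 FPKM untreated, 10.7 with ibrutinib, 4.76 with asparaginase and 9.70 with the combination. In Sem, CD79B thus stood on the same side of untreated as IGLL1 in each treatment, which CD79A did not. Of these 3 partners 2 rose in Nalm6 with asparaginase and 0 fell, and in Sem 0 rose and 2 fell; on the TPM scale it was 3 and 0 in Nalm6 and 1 and 1 in Sem. Their median change was 0.53 and -0.14, beside 0.022 and -0.0037 over all genes tested.

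Light chain genes gave a further contrast. IGLC7, a lambda constant segment, averaged 1522 FPKM in untreated Nalm6 and 465 FPKM with asparaginase (-1.71, adjusted p = 2.81e-08), and was listed at 0 in all Sem libraries. With ibrutinib it was at 1606 FPKM (0.08, adjusted p = 0.522) and with the combination at 525 FPKM (-1.53, adjusted p = 2.55e-08). IGKC, the kappa constant gene, was at 0 in Nalm6 and at 1.06 to 5.67 FPKM in Sem, on 9 to 46 reads. Its Sem means were 2.58 FPKM untreated, 4.63 with ibrutinib, 1.56 with asparaginase and 4.22 with the combination. IGKC thus stood on the same side of untreated as IGLL1 in each treatment. Its asparaginase call in Sem (limma, -0.50, adjusted p = 0.0353) was lost with limma-voom (-0.70, adjusted p = 0.168). IGLL5, a light chain-like gene, fell in Sem with ibrutinib by 1.28 (adjusted p = 4.83e-05) and with the combination by 1.41 (adjusted p = 1.12e-05), the opposite way to IGLL1.

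Among 20 genes of pre-B receptor signalling, 15 could be tested in Nalm6 and 17 in Sem. With asparaginase 7 rose and 5 fell in Nalm6, and 3 rose and 4 fell in Sem. The TPM scale gave 8 and 1 in Nalm6 and 6 and 4 in Sem, so the split depends on the scaling. Median changes were 0.039 and -0.017. PLCG2, the phospholipase downstream of BTK, rose by 0.69 in Nalm6 (adjusted p = 1.11e-06) and by 0.30 in Sem (adjusted p = 0.00176). LAT2, an adaptor, rose in Nalm6 (0.79) and did not pass in Sem (0.04, adjusted p = 0.560).

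Of 26 transcription factors of the B precursor stage, 23 were tested in Nalm6 and 25 in Sem. With ibrutinib 2 rose and 7 fell in Nalm6 and 16 rose and 2 fell in Sem, with medians of -0.13 and 0.29. Without the libraries that stood apart, 3 rose and 12 fell in Nalm6. Over all genes tested, 660 rose and 987 fell of 13237 in Nalm6 (12.4% called) and 2718 rose and 2854 fell of 13417 in Sem (41.5%). With asparaginase 9 rose and 7 fell in Nalm6 and 4 rose and 9 fell in Sem, which on the TPM scale became 12 and 3, and 8 and 6. ID3, an inhibitor of E proteins, fell with asparaginase in Nalm6 by 2.06 (adjusted p = 5.33e-09) and in Sem by 0.39 (adjusted p = 0.000526). PAX5, which sustains B cell identity, rose by 0.66 (adjusted p = 8.21e-05) and 0.57 (adjusted p = 1.06e-05). SPIB, an ETS factor of B cells, fell by 0.61 in each (adjusted p = 0.000619 and 0.000356).

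Of 16 chaperones that fold immunoglobulin chains, 13 fell and 1 rose with asparaginase in Nalm6, and 7 fell and 1 rose in Sem, with medians of -0.79 and -0.065. On the TPM scale 12 fell and 1 rose in Nalm6, and 6 fell and 4 rose in Sem. Over all genes tested with asparaginase, 3713 fell and 3738 rose of 13237 in Nalm6, and 2022 fell and 1523 rose of 13417 in Sem, which is the background for each count of genes with asparaginase given here. Without the libraries that stood apart, the Nalm6 counts with asparaginase were 12 fallen and 1 risen for the chaperones, 6 and 11 for the transcription factors, 5 and 6 for receptor signalling and 0 and 3 for the partners. HSPA5, the chaperone known to hold unpaired heavy chains, fell by 1.90 in Nalm6 (adjusted p = 3.37e-10) and by 0.29 in Sem (adjusted p = 0.000338). Among 16 stage markers, 11 were tested in Nalm6, of which 3 rose and 6 fell with asparaginase, and 7 in Sem, of which 1 rose and 3 fell. The TPM scale gave 4 and 3 in Nalm6 and 1 and 2 in Sem. The chemokine receptor CXCR4 rose in Nalm6 by 0.55 (adjusted p = 1.04e-06) and fell in Sem by 0.32 (adjusted p = 0.00257), as VPREB3 did.

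Near IGLL1 a noncoding antisense gene, AP000345.1 (ENSG00000224277), lies on the plus strand at chr22:23567064-23573507, and 43 of its exon bases, chr22:23573465-23573507, are also exon of IGLL1. It was at 116, 149.8 and 139 FPKM in untreated Nalm6, with group means of 126 with ibrutinib, 46.9 with asparaginase and 31.8 with the combination. In Sem its means were 16.7, 31.6, 6.87 and 34.9 FPKM. It fell with asparaginase in Nalm6 (-1.50, adjusted p = 1.07e-07) and in Sem (-1.18, adjusted p = 0.000297), and in Sem rose with ibrutinib (0.88, adjusted p = 0.00107) and with the combination (1.03, adjusted p = 0.000224). Its reads made 8.58 to 9.95 per 100 IGLL1 reads as Nalm6 group means and 6.07 to 7.10 as Sem group means. Whether the libraries keep strand is not stated, so reads within those 43 bases cannot be told apart without it, while reads elsewhere in the exons differ by position. A further noncoding gene, AP000345.2, lies on the same strand as IGLL1, 572 bases upstream of it, and does not overlap it. It fell in Nalm6 with asparaginase (-1.98, adjusted p = 9.87e-07) and with the combination (-2.36, adjusted p = 1.32e-07). In Sem it rose with ibrutinib (0.46, adjusted p = 0.0304), a call lost with quantile normalization (0.38, adjusted p = 0.0735). Its Sem rise with the combination (limma, 0.40, adjusted p = 0.0475) was lost with quantile normalization (0.26, adjusted p = 0.181) and with limma-voom (0.64, adjusted p = 0.0587). With asparaginase its Sem change was not called (limma, -0.40, adjusted p = 0.0782). The Sem libraries were at 1.19 to 2.03 FPKM untreated and 1.97 to 3.16 FPKM with ibrutinib, which overlap, on 19 to 53 reads each.

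**Figure D4:**
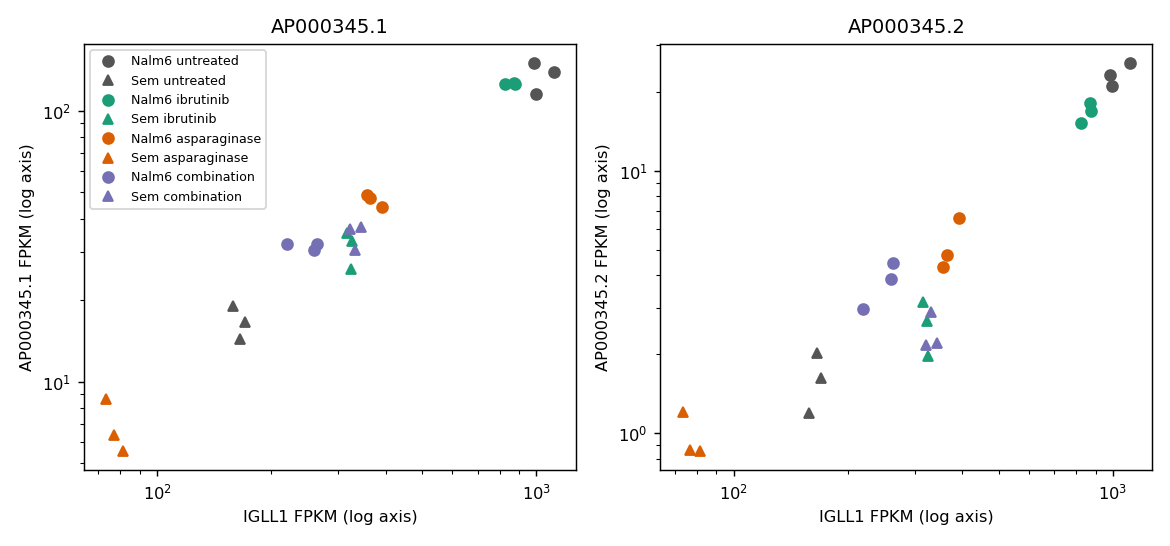
FPKM of IGLL1 (x, log axis) against FPKM of its neighbours AP000345.1 (left) and AP000345.2 (right; both y axes log) in 24 libraries; circles are Nalm6, triangles Sem and colours the treatments. For AP000345.1 the points of both lines form 1 band, and the Sem asparaginase libraries are at its lower end.

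Of the 947 stretches of 50 bases in IGLL1 transcripts, 78 (8.24%) occur in another gene (AL022324.4, AP000346.2, GUSBP11, IGLC1, IGLL3P or IGLL5), while VPREB1 and VPREB3 share 0. IGLC1, IGLL3P and AL022324.4 were listed at 0 in all libraries, and the highest value among the other 3 was 5.20 FPKM, in IGLL5.

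Among 1656 genes tested in both lines and changed by at least 0.5 in each, the likeness to each member was the correlation of line-centred log2 levels over the 24 libraries. For IGLL1 the highest values belonged to AP000345.1 (0.98), ADA (0.96), RFC5 (0.93), TIMP2 (0.92) and BTBD6 (0.92). Among the lowest were DMPK (-0.95), HLA-DPA1, MOB3A and ELK3 (-0.93). CD38 (0.81) led for VPREB1, followed by INSIG1, CSRP2, PFDN4 and RFC5. MMP11 (0.92) led for VPREB3, before CXCR4 (0.90), LGALS9, NIPSNAP3B and CREB3L4. In Nalm6, NIPSNAP3B averaged above 1 FPKM only with the combination (1.16), and CSRP2 only untreated (2.43) and with ibrutinib (1.97). Both passed the filter there mainly through those groups. MMP11 lies 13758 bases from VPREB3 on the other strand, and in Sem it rose from a mean of 5.38 to 12.4 FPKM with ibrutinib (1.07, adjusted p = 3.86e-06). With asparaginase its Sem value was 0.014 (adjusted p = 0.923), where VPREB3 fell. Within 100 kb of VPREB3, 9 genes could be tested in Nalm6, of which 6 rose and 2 fell with asparaginase, where 56.3% of all genes were called. Among those that rose, MMP11, ASLP1 and AP000347.1 averaged below 1 FPKM in Nalm6 untreated and with ibrutinib. These passed the filter there mainly through the groups where they were high. In Sem 6 could be tested, of which 1 rose and 1 fell, where 26.4% of all genes were called. The nearest, the zinc finger gene ZNF70, rose in Nalm6 by 0.31 (adjusted p = 0.00472) and gave 0.17 in Sem (adjusted p = 0.0767). SMARCB1, a subunit of a chromatin remodelling complex, fell in both lines (-0.50, adjusted p = 0.000164, and -0.30, adjusted p = 0.000535).

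Of 6 genes within 100 kb of VPREB1 tested in Nalm6, 5 rose and 0 fell with asparaginase, and of 5 tested in Sem 0 rose and 0 fell (limma; 56.3% and 26.4% of all genes were called there). The lambda variable segment IGLV5-52 averaged 15.2 FPKM in untreated Nalm6 and 21.3 FPKM with asparaginase (0.46, adjusted p = 0.0350). The noncoding AC245060.2 rose there by 1.06 (adjusted p = 0.000472), from a mean of 0.47 to 2.04 FPKM, and IGLV1-50 from 0.25 to 1.08 FPKM. Both averaged below 1 FPKM untreated and with ibrutinib, so they passed the filter mainly through the groups where they were high. Their rise therefore adds no support to the count. Near IGLL1, 7 genes were tested in Nalm6, of which AP000345.1 and AP000345.2 fell with asparaginase and the pseudogenes ASLP1 and AP000347.1 rose. The highest group mean was 2.07 FPKM for ASLP1 and 1.16 FPKM for AP000347.1. ASLP1 and AP000347.1 averaged 0.79 and 0.57 FPKM untreated and 0.84 and 0.68 FPKM with ibrutinib. They too passed the filter mainly through the groups where they were high.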

How the data were processed

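RNA of 24 libraries was sequenced. The authors deposited FPKM, made on hg38 using featureCounts after fastp and STAR, whose versions are not given in the sources used here, per the submitters' processing notes. In the deposited table, 299165 values (21.2%) of 1 or more had lost the decimal point. Each was restored to a power of 10 that gives whole reads for the gene length, weighing counts that end in 0 as less likely and related libraries as similar (prior scales 0.07 for replicates, 0.1 for ibrutinib, 0.13 for asparaginase and 0.08 for their interaction). The divisor of the deposited FPKM differed from the assigned reads by a factor near 1 in each library, and no source used here says how it was set. Intact values lay within 9.09e-13 reads of whole numbers. Of the 72 member values, 12 had read counts that are multiples of 10, so that a lower power gives whole reads too; no group had 3 such values, although a power 10 times too high in a whole group would make all 3 so, and the lowest posterior was 0.996. A higher power gives whole reads for every member value too, and was set aside by the weighing above. Over all genes, 287 restored values in 162 genes had a posterior under 0.99, and none was left out of the fits for it. The restored values are therefore an inference. Coordinates matched GENCODE 29 for 58724 of 58735 genes.

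Log2(FPKM + 1) was fitted with limma 3.58.1 in R 4.3.3, within a line over 12 libraries and between lines over 24, with the adjusted p under 0.05 as threshold. The table's unit was entered as other, because damaged strings are not numeric. The sample labels number the replicates without stating a pairing, and no block was used in the main fit. Members and gene lists were chosen with earlier results of these data known. Named genes were the 3 called genes per list and line with the largest asparaginase change, some partners, neighbours within 100 kb and the closest patterns; of these a selection is described, and 1 gene is not reported here. The restoration and the fit were tested on simulated data. Alternatives were another pseudocount, no filter, TPM, quantile and voom scaling, a replicate block, both lines in 1 fit and leaving out libraries.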

Additional observations from a re-analysis of the deposited data

Results flagged for a closer look

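The IGLL1 effects of the lines differed by 1.23 for ibrutinib and 3.07 for the combination (log2, Sem minus Nalm6), with every Nalm6 library below and every Sem library above its untreated libraries; the difference was not tested, since IGLL1 was chosen for it. The VPREB3 effects differed by -1.19 for asparaginase, 0.43 for ibrutinib and 0.38 for the combination, and the VPREB1 effects by 0.26 for the combination, each by the limma interaction term. Of the VPREB1 and VPREB3 differences named here, the VPREB3 asparaginase difference alone held in all 19 alternatives run on it (adjusted p from 1.69e-08 to 5.47e-06). Each of the others was lost in at least 1 alternative.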

How the results depend on the processing

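IGLL1 kept its direction in all 182 alternative values, of which 167 moved by less than the largest replicate SD of the groups compared. Much of that count was fixed in advance. Leaving out 1 library of 3 (90 values) cannot move a mean that far. The filter, the block and the fit of both lines keep the IGLL1 change by construction. All values that moved came from rescaling: 5 with TPM, 8 with quantile normalization and 2 with voom, where 7, 4 and 10 did not. VPREB1 kept direction and call in 158 of 182 and VPREB3 in 164 of 182. The asparaginase calls of both genes in both lines, and the combination against asparaginase calls, did not change; no other power of 10 was refitted. The count of genes called with ibrutinib in Nalm6, 1647, became 1056 without the filter, 857 with quantile normalization, 2507 when 1 fit held both lines, 3337 after dropping the libraries that stood apart (chosen after seeing the data), and 705 to 1528 leaving out single libraries. The other counts stayed within 1.5 times.

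VPREB1 with the combination in Nalm6 gave -0.095 with TPM, -0.13 with voom and 0.0065 with quantile normalization, and in Sem 0.082, 0.040 and 0.25, and -0.068 to 0.058 leaving out libraries. VPREB1 with ibrutinib in Sem gave 0.19 (adjusted p = 0.0836) without the filter, 0.19 (adjusted p = 0.0523) with the replicate block and 0.14 to 0.23 leaving out libraries. VPREB3 with ibrutinib in Nalm6 gave 0.29 to 0.38. The VPREB1 line difference in the combination was 0.26 (adjusted p = 0.0573) without the filter, 0.18 with TPM, 0.17 with voom, 0.22 without the libraries that stood apart and 0.20 to 0.32 leaving out libraries. The VPREB3 ibrutinib difference was 0.43 (adjusted p = 0.0582) without the filter, 0.34 with quantile normalization, 0.44 with voom and 0.34 to 0.50 leaving out libraries. The VPREB3 combination difference was 0.055 with quantile normalization, 0.33 with voom, 0.34 without the libraries that stood apart and 0.29 to 0.45 leaving out libraries. TPM, voom and quantile scaling each leave out the library factor in the deposited divisor by construction. Beyond that, the cause was not tested.

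The replicate block changed 1 call of the members, that of VPREB1 above. Same-numbered libraries deviated together at a median r of 0.014 in Nalm6 and 0.030 in Sem, against -0.0053 and -0.020 for libraries of other numbers. In Nalm6 3 of 18 same-numbered pairs and 6 of 36 other pairs were above 0.1. The median gene moved by 0.17 and 0.19 with asparaginase and the combination in Nalm6, and by 0.11 with the combination in Sem, on the TPM scale. At 74 to 266 reads, small changes of VPREB3 in Sem are limited by depth.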
